A study of Mus with 2 samples.

Results

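The claudins described here are Cldn1, Cldn2, Cldn3, Cldn4, Cldn5, Cldn6, Cldn7, Cldn10, Cldn11 and Cldn16, 10 of the 28693 features in the count matrices, taken by gene symbol. Claudins are membrane proteins with 4 transmembrane segments that polymerise into the strands of tight junctions and set how much, and which ions, pass between neighbouring epithelial or endothelial cells. In the kidney they are known for differing from segment to segment: some form ion-selective pores and others seal the junction. The set was followed across cell types of the newborn kidney, in the nephron, the ureteric tree, the vessels and the stroma.

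Both libraries came from kidneys of mice at P0 (postnatal day 0) with the genotype Rbpj c/- ; Foxd1cre/+. Rbpj encodes the DNA-binding partner of Notch receptors, and the series' design places its deletion by Foxd1Cre in the interstitium. Foxd1 itself was also seen in podocytes, with a UMI in 383 and 264 cells of that gate and none in 75 and 64, and whether the allele was lost there was not tested. The design names 2 further libraries, controls of the genotype Rbpj c/+ ; Foxd1cre/+, which were not analysed here, so every comparison is between cell types of mutant kidneys and none measures the effect of the deletion. The 2 mutant libraries are replicates 1 and 2 below, and the labels do not say that they came from separate animals. The p-values measure only how differences between types varied between these 2 libraries, with 1 estimate of spread per gene shared by all types. Whether that spread includes differences between animals is not known.

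The libraries held 163405630 and 135436576 unique molecular identifiers (UMIs, counts of single captured RNA molecules), and 5910 and 4937 cells were kept. The libraries shared 8 of the barcodes with at least 2000 UMIs. Rbpj itself stood at 32.2 and 28.6 CPM (UMIs per 1000000 UMIs of the cells in question) over the stromal types and at 61.9 and 58.7 CPM in nephron progenitors. Those counts come from the 3′ end of the transcript and do not show whether the floxed exons were lost. Cells were gated by marker genes, none of them a claudin, and 22 types had at least 20 cells in each library. The gates are ranges of a score. Of 9957 gated cells, 404 (4.06%) lay within 2 times the required margin between best and next score, and 890 cells (8.21%) entered no gate. Of 52 checks with marker genes outside the main gates, 36 had the gene highest in the gate it stands for. Gata3 was a check for both ureteric tip and collecting duct. Gata3 and Pdgfrb also served to divide the stroma, so their checks are not independent of the gating. Check markers of both precursor gates were higher elsewhere: Tfap2b was highest in the loop of Henle and Amn in the proximal tubule, so the precursor and mature gates of a segment differ in degree. In the loop of Henle gate the 5 gate markers, Umod among them, together stood at 3813 and 3760 CPM, while Egf stood at 2.36 CPM, below the 23.2 CPM of podocytes.

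All 10 genes matched the annotation table of the mm10 build (GRCm38.p6), and 3 pairs of claudin genes lay close together. Cldn3 (ENSMUSG00000070473, chromosome 5, 134986214 to 134987476) and Cldn4 (ENSMUSG00000047501, chromosome 5, 134945123 to 134946934) were 39279 bases apart. Cldn1 (ENSMUSG00000022512, chromosome 16, 26356645 to 26371839) and Cldn16 (ENSMUSG00000038148, chromosome 16, 26463135 to 26482765) were 91295 bases apart. Cldn6 (ENSMUSG00000023906, chromosome 17, 23679348 to 23682446) was 137 bases from Cldn9, a claudin outside the set. Cldn5 (ENSMUSG00000041378) starts at base 18776847 of chromosome 16, and Cldn2 (ENSMUSG00000047230) at base 139800808 of chromosome X. Cldn7 (ENSMUSG00000018569) starts at base 69964779 of chromosome 11, Cldn10 (ENSMUSG00000022132) at base 118787871 of chromosome 14 and Cldn11 (ENSMUSG00000037625) at base 31149920 of chromosome 3.

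The 10 claudins fell into groups by where their RNA was found. Cldn6 and Cldn7 were present in every tubule and ureteric type. Among the 22 fitted types Cldn3 and Cldn4 were highest in the ureteric tree, Cldn2 in the proximal tubule, and Cldn10 and Cldn16 in the loop of Henle. Cldn5 was highest in podocytes and next in endothelium, Cldn1 in cortical stroma and Cldn11 in interstitial stroma. Across the 44 columns of type by library, log2(CPM + 1) of Cldn6 and Cldn7 had a Pearson r of 0.96, Cldn3 and Cldn7 of 0.93, and Cldn3 and Cldn4 of 0.91. The lowest r was that of Cldn5 and Cldn10, at -0.45. These values describe columns that share 2 libraries and are not independent.

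**Figure D1:**
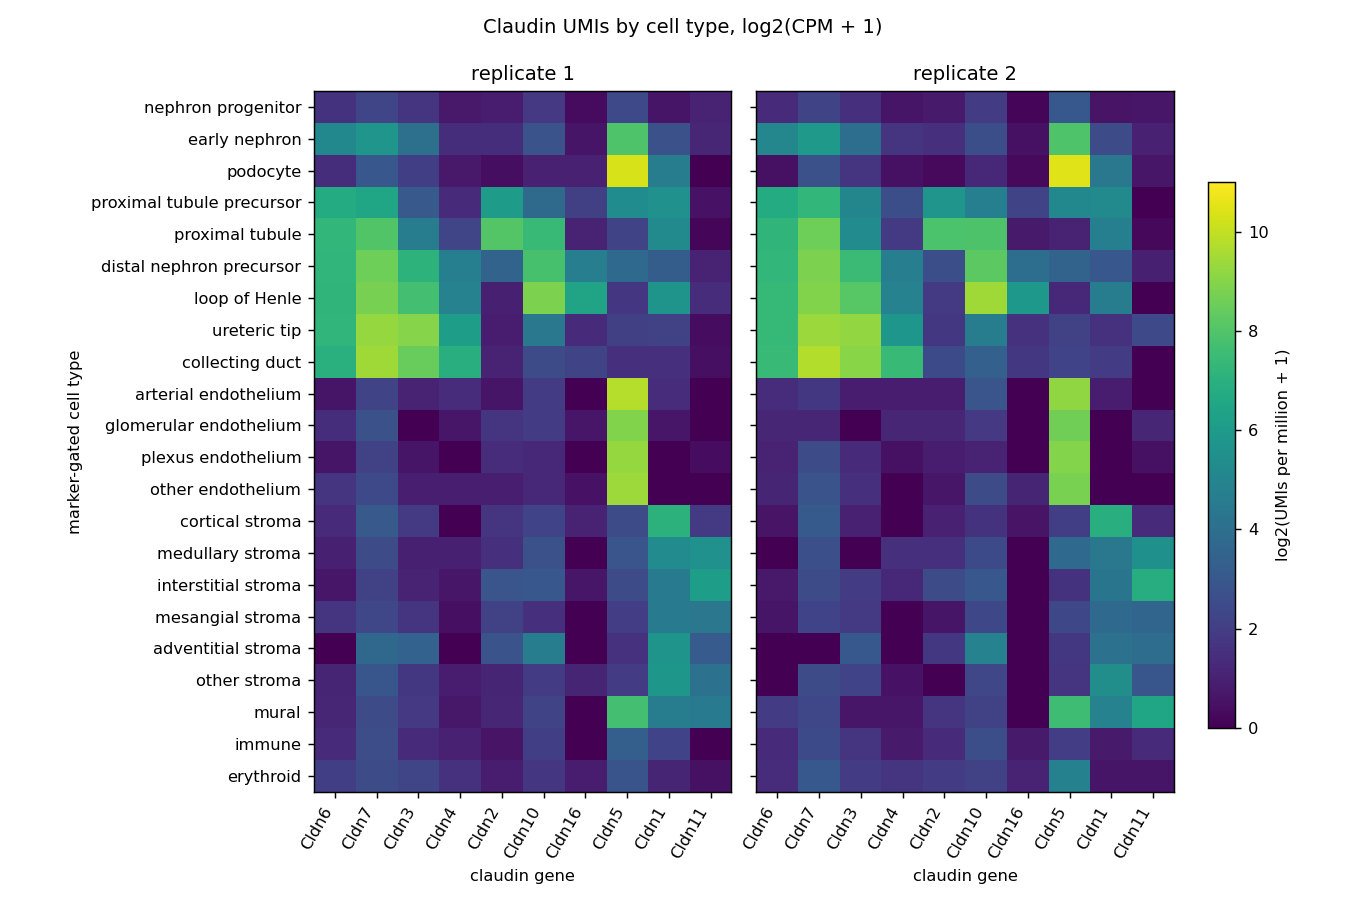
Level of each claudin (columns) in each of the 22 gated types (rows), as log2(CPM + 1) on the colour scale, with replicate 1 on the left and replicate 2 on the right. Cldn5 in podocytes is the brightest cell in each library, and both libraries show the same blocks; levels are to be read down a column, between types.

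How much of a claudin signal could be free RNA was read from cells that should hold none. With each cell thinned to 4600 UMIs, the highest share for a single claudin was 3.25% of erythroid cells (Cldn5) and 2.96% of immune cells (Cldn7). Over all 10 claudins together, 89.4% and 91.5% of erythroid cells and 87.0% and 87.1% of immune cells had no UMI. Median depths before thinning were 4419.5 and 4558.5 UMIs in erythroid cells and 7639 and 8669 UMIs in immune cells. Thinning left out the shallower cells, 435 of them erythroid. Shares near 3% for a single claudin are therefore read as background below. In barcodes with under 100 UMIs the claudins ranged from 3.35 CPM for Cldn11 to 144 CPM for Cldn5.

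Epithelia were set against the endothelial and stromal types to ask which claudins mark epithelium in this tissue. Of the 10 claudins, 8 were higher in epithelium and 1 was lower by edgeR's quasi-likelihood test (Benjamini-Hochberg adjusted over all genes), while 67.8% of the 14369 genes tested were called, 39.5% higher and 28.3% lower. The median log2 difference was 3.77 for the claudins and 0.08 for all genes, where the former rests in part on genes with 0 UMIs in some types. Cldn7, a claudin of most simple epithelia, was higher by a log2 difference of 5.18 ± 0.13 (SE; edgeR adjusted p = 3.0e-28), by 6.18 without replicate 1 and by 4.12 with a mitochondrial limit of 5%. Cldn10, which forms paracellular ion pores in several splice forms, was higher by 2.83 ± 0.17 (edgeR adjusted p = 9.4e-17), and by 2.11 with that limit. Cldn2, a cation and water pore, was higher by 1.59 ± 0.34 (edgeR adjusted p = 0.00011), by 2.51 without replicate 1, by 1.09 without replicate 2 and by 2.34 with the limit of 5%. The limit of 5% left too few loop of Henle and collecting duct cells to fit, so its values in this contrast come from fewer types.

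Cldn5 and Cldn1 were each high in some epithelial types and in some of the others, and each lost its call in at least 1 setting. Cldn1 was called higher in epithelium, at 1.26 ± 0.32 (edgeR adjusted p = 0.00084). That value depends on the endothelial types, of which plexus endothelium and endothelium of no sub-gate had 0 UMIs of Cldn1 in both libraries. The stromal types pooled to 44.6 CPM, above the mean level of each fitted epithelial type. With a mitochondrial limit of 5% that difference was 0.67 (adjusted p = 0.18), and with no doublet removal it was 0.51. Cldn5 was lower in epithelium, at -1.02 ± 0.35 (edgeR adjusted p = 0.011). That value turned to 1.04 (adjusted p = 0.49) with the mitochondrial limit of 5%, which leaves fewer types. It was -0.19 (adjusted p = 0.72) with no doublet removal and -1.38 (adjusted p = 0.059) with gates by share of markers. No estimate is given for Cldn11, since several types had no UMI of it.

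Proteins that meet claudins at the junction followed the same comparison. Of 29 tight junction partners, 21 were higher and 6 lower in epithelium, in the contrast where 39.5% of all genes were higher and 28.3% lower. Marveld2 (tricellulin, a protein of junctions where 3 cells meet) was higher by a log2 difference of 6.13 ± 0.22, and Marveld3, of the same family, by 5.87 ± 0.68. Jam2, an adhesion molecule of vessels, was lower, at -6.07 ± 0.33. Among the other claudins 8 of 17 could be tested, of which 4 were higher and 1 lower. Cldn9 was higher by 4.68 ± 0.34 and Cldn19, which works with Cldn16 in the thick ascending limb, by 4.02 ± 0.39, while Cldn15 was lower, at -4.39 ± 0.49. Adjusted p by edgeR's quasi-likelihood test was at most 1.6e-08 for each of the named genes. Without replicate 1 the difference was 7.57 for Marveld2, 6.40 for Cldn9, 4.64 for Cldn19 and -3.53 for Cldn15. Without replicate 2 it was 7.09 for Marveld3, 5.30 for Cldn9, 4.65 for Cldn19 and -6.67 for Jam2. With the mitochondrial limit of 5% it was 2.46 for Cldn19 (adjusted p = 0.013), 5.19 for Marveld2 and -2.94 for Cldn15. With no doublet removal it was -3.73 for Cldn15 and -5.28 for Jam2. All 6 genes named in this contrast had 0 UMIs in at least 1 of the types compared, so the sizes are fitted values and not bounds.

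Nephron progenitors, the mesenchymal cells that turn into epithelium, held almost no RNA of these 10 claudins, and most of the set was higher in the early nephron. At 4600 UMIs, 91.3% and 91.2% of nephron progenitors had no UMI of any of the 10 claudins, against 38.2% and 41.1% of early nephron cells. The progenitor values lie near those of erythroid and immune cells. In the early nephron 8 of the 10 claudins were higher and none was lower by edgeR's quasi-likelihood test, where 42.6% of all genes were called, 20.6% higher and 22.0% lower. The median log2 difference was 2.17 for the claudins and -0.04 for all genes.

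Cldn6, a claudin of embryonic epithelia, stood at 33.7 and 33.2 CPM in the early nephron (33.4 ± 0.36, mean ± SD, n = 2 here and below), against 1.76 ± 0.43 CPM in nephron progenitors. It was higher by a log2 difference of 4.10 ± 0.18 (edgeR adjusted p = 5.3e-19). Cldn7 stood at 52.9 and 59.0 CPM in the early nephron and was higher by 3.73 ± 0.17 (edgeR adjusted p = 7.2e-19), and by 4.46 with gates by share of markers. The 2 libraries lay close together for both genes and did not overlap with the progenitors.

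The neighbour of Cldn6 moved the other way. Cldn9 was highest of all fitted types in nephron progenitors, at 59.6 and 69.9 CPM, and stood at 16.7 and 17.4 CPM in the early nephron. It was lower there, with a log2 difference of -2.04 ± 0.15 (edgeR adjusted p = 1.8e-13), while Cldn6, 137 bases away, was higher. Cldn19 was the other of the 8 tested claudins outside the set that was called, higher by 3.35 ± 0.45 (edgeR adjusted p = 2.6e-07), by 4.11 with the mitochondrial limit of 5% and by 4.14 with gates by share of markers.

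Cldn5, the claudin best known for sealing endothelial junctions, stood at 252 and 248 CPM in the early nephron and was higher than in progenitors by a log2 difference of 5.32 ± 0.22 (edgeR adjusted p = 3.0e-20). Cldn1, a sealing claudin, was higher by 3.15 ± 0.35 and Cldn3 by 2.84 ± 0.31 (edgeR adjusted p = 5.2e-09 and 2.7e-09). Both remained low, with Cldn1 at 5.23 ± 0.51 CPM and Cldn3 at 15.1 ± 0.57 CPM. Cldn4, Cldn10 and Cldn2 were called at small levels and lost the call with the mitochondrial limit of 5% (adjusted p = 0.19, 0.053 and 0.089). Cldn2 (1.05 ± 0.43, edgeR adjusted p = 0.047) lost it also with a doubled gate margin, a minimum of 50 cells, DESeq2 and no replicate block, with adjusted p between 0.058 and 0.073 in these 4 settings. The Cldn5 difference was 3.39 with the mitochondrial limit of 5% and 3.93 with gates by share of markers, and that of Cldn1 was 2.29 with that limit and 2.14 with no doublet removal. With gates by share of markers it was 4.18 for Cldn3 and 2.70 for Cldn2.

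Of the 29 tight junction partners 16 were higher in the early nephron and 1 lower, where 20.6% of all genes were higher and 22.0% lower. Crb3, of the apical polarity complex, was higher by a log2 difference of 5.58 ± 0.20, Marveld2 by 3.33 ± 0.26 and Epcam, which binds Cldn7, by 3.21 ± 0.14. Adjusted p by edgeR's quasi-likelihood test was at most 3.7e-12 for these genes, and the Epcam difference was 3.81 with gates by share of markers.

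Within the early nephron, Cldn5 and the tubule claudins were found mostly in different cells. At 4600 UMIs a Cldn7 UMI was seen in 1.34% and 3.08% of cells with a Cldn5 UMI (2 of 149 and 4 of 130), and in 20.5% and 22.6% of cells without one. The exact 95% binomial intervals were 0.16 to 4.76% and 0.85 to 7.69% for cells with Cldn5, and 15.2 to 26.6% and 17.4 to 28.6% for cells without. Cldn6 was split in the same way, with 3.36% and 3.08% of cells with Cldn5 against 16.7% and 15.7% of cells without. In cells that had Cldn5, the share with Cldn6 or Cldn7 was near the level of erythroid and immune cells. These pairs were chosen after their values were seen.

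In the proximal tubule precursor gate 0 of 25 and 1 of 25 cells with Cldn5 had a Cldn7 UMI, against 27.4% and 35.9% of cells without Cldn5. The 5 podocyte gate markers together stood at 30.4 and 23.6 CPM in the early nephron gate and at 6037 and 5830 CPM in the podocyte gate. The part of misplaced podocytes in these values was not tested.

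**Figure D2:**
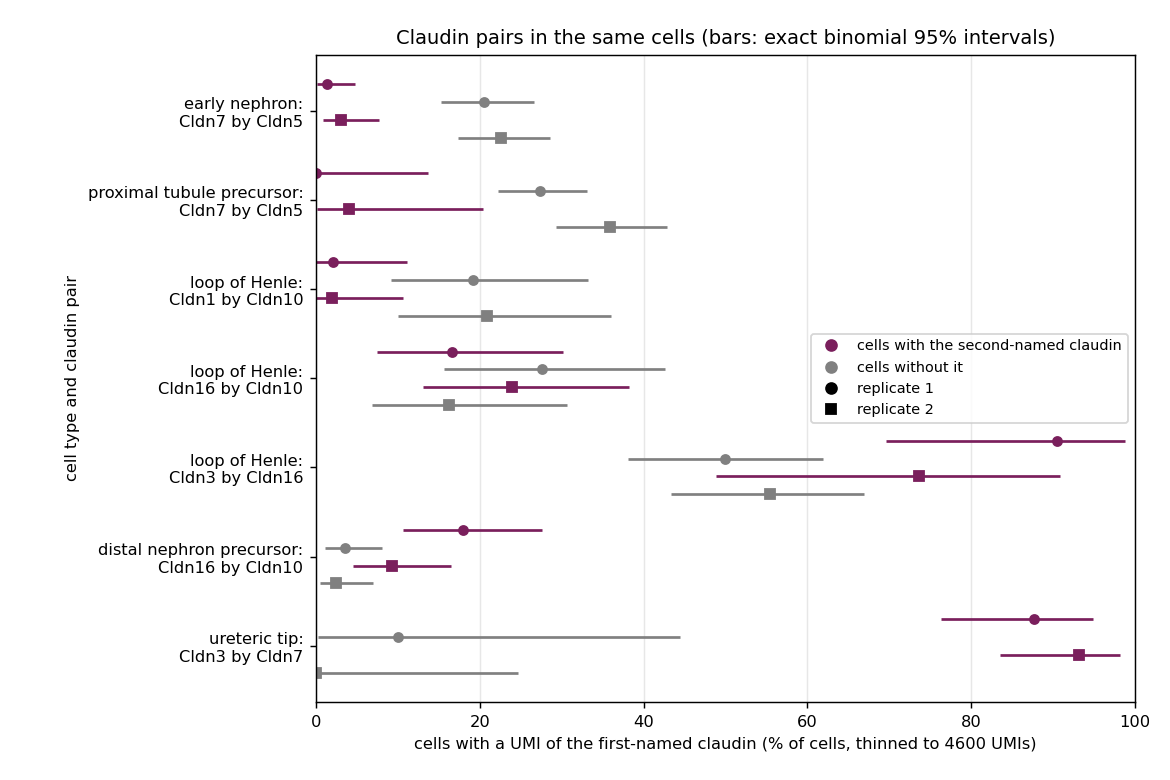
Share of cells with a UMI of 1 claudin (horizontal axis, percent of cells at 4600 UMIs) among cells with (purple) and without (grey) a UMI of a second claudin, for 7 pairs of claudins in 5 cell types; circles are replicate 1, squares replicate 2, and bars are exact binomial 95% intervals for counting error. Cldn7 is rare in early nephron cells with Cldn5, Cldn1 is rare in loop of Henle cells with Cldn10, and Cldn3 goes with Cldn7 in the ureteric tip.

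Podocytes, the epithelial cells that carry the slit diaphragm of the glomerulus, held mainly Cldn5. Cldn5 stood at 1283 and 1407 CPM in podocytes (1345 ± 87.9), and 98.4 ± 0.93% of podocytes had a UMI of it at 4600 UMIs. The next types were arterial endothelium with 886 and 578 CPM, plexus endothelium with 616 and 504 CPM, endothelium of no sub-gate with 663 and 447 CPM and glomerular endothelium with 487 and 391 CPM. The podocyte libraries lay above every endothelial library, whereas each of the 4 endothelial types overlapped with its neighbour in the order.

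Podocytes were set against endothelium after these levels were seen. Cldn5 was higher in podocytes by a log2 difference of 1.20 ± 0.12 against the mean of the endothelial types (edgeR adjusted p = 1.2e-10), a contrast in which 62.7% of all genes were called. Against arterial endothelium alone the difference was 0.86 ± 0.17 (edgeR adjusted p = 5.2e-05), where 48.5% of all genes were called. It was 1.26 without replicate 1, 0.53 without replicate 2, 0.80 by DESeq2 (adjusted p = 0.061) and 0.57 with the mitochondrial limit of 5% (adjusted p = 0.073). Endothelial RNA in podocytes was low, with the 6 endothelial gate markers at 18.4 and 15.2 CPM in all, against 5388 and 5271 CPM in arterial endothelium. Podocytes without any UMI of these markers (388 and 286 cells) had 1310 and 1455 CPM of Cldn5, and those with one (70 and 42) had 1215 and 1312 CPM.

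Against the early nephron, 2 claudins were higher in podocytes and 6 were lower, where 65.0% of all genes were called, 33.0% higher and 32.0% lower. Over the claudins the median log2 difference was -2.10, and over all genes 0.0048. Cldn5 was higher by a log2 difference of 2.43 ± 0.17 (edgeR adjusted p = 1.0e-14) and Cldn1 by 2.08 ± 0.22 (edgeR adjusted p = 4.7e-10). Cldn1 stood at 23.7 and 20.4 CPM in podocytes, and 9.24 ± 0.30% of podocytes had a UMI of it at 4600 UMIs. The 8 stroma gate markers together stood at 1325 and 1606 CPM in podocytes, against 105 and 99.0 CPM in the early nephron. The part of stromal RNA in the Cldn1 difference was not tested. The claudins of the tubules were lower. Cldn6 was lower, at -4.89 ± 0.29 (edgeR adjusted p = 2.0e-16), with -6.36 without replicate 1 and -4.29 without replicate 2. Cldn7 was lower, at -3.15 ± 0.21 (edgeR adjusted p = 4.0e-15), Cldn3 at -2.51 ± 0.41 and Cldn10 at -2.26 ± 0.37 (edgeR adjusted p = 2.5e-06 and 2.4e-06). Cldn2 and Cldn4 were lower from levels already under 3 CPM, and Cldn4 lost the call with the mitochondrial limit of 5% (adjusted p = 0.056). With gates by share of markers the difference was 1.40 for Cldn1 and -3.52 for Cldn3.

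Of the 29 tight junction partners 12 were higher in podocytes and 11 lower, shares near those of all genes (33.0% higher and 32.0% lower). Ildr2, a protein of tricellular junctions, was higher by a log2 difference of 4.85 ± 0.16 and the scaffold Tjp1 (ZO-1), which is also part of the slit diaphragm, by 3.28 ± 0.10. Epcam was lower, at -4.46 ± 0.19. Adjusted p by edgeR's quasi-likelihood test was at most 8.2e-21 for these genes. Among the other claudins Cldn9 was lower, at -4.32 ± 0.38 and Cldn19 at -2.59 ± 0.60, and Cldn15 was higher by 3.54 ± 0.47 (edgeR adjusted p = 6.5e-12, 0.00034 and 5.9e-08). Without replicate 1 the difference was -5.11 for Epcam and -1.96 for Cldn19, and without replicate 2 it was -3.86 for Cldn19. With the mitochondrial limit of 5% it was 4.39 for Cldn15 and -3.39 for Cldn19, and with gates by share of markers 4.16 for Ildr2 and -3.50 for Cldn19.

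In the proximal line Cldn2 and Cldn1 had the largest increases from early nephron to precursors, and Cldn10 the largest from precursors to tubule. Cldn2 stood at 1.73 and 1.89 CPM in the early nephron, at 64.5 and 52.7 CPM in proximal tubule precursors and at 262 and 238 CPM in the proximal tubule. No 2 of these types overlapped. The proximal tubule reabsorbs most of the filtered fluid, and Cldn2 is its known cation pore. At 4600 UMIs 58.4 ± 3.78% of proximal tubule cells had a Cldn2 UMI. In the precursor step, a contrast chosen after the levels were seen, Cldn2 was higher by a log2 difference of 5.04 ± 0.23 (edgeR adjusted p = 4.6e-19), where 44.9% of all genes were called. In the same step Cldn16 (2.84 ± 0.45), Cldn10 (1.72 ± 0.18), Cldn6 (1.72 ± 0.13) and Cldn7 (1.13 ± 0.13) were also called higher, and Cldn5 was called lower, at -2.72 ± 0.19 (edgeR adjusted p at most 5.9e-06). The difference of Cldn2 was 4.23 with gates by share of markers and 4.40 with the mitochondrial limit of 5%.

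From precursors to proximal tubule 5 claudins were higher and 2 lower, where 45.4% of all genes were called, 24.7% higher and 20.7% lower. Claudins had a median log2 difference of 0.47 and all genes of -0.0016. Cldn10 stood at 12.95 and 26.3 CPM in precursors and at 174 and 240 CPM in the proximal tubule, a log2 difference of 3.61 ± 0.13 (edgeR adjusted p = 1.4e-21). Cldn2 was higher by 2.26 ± 0.14 (edgeR adjusted p = 2.2e-15) and Cldn7 by 1.55 ± 0.13 (edgeR adjusted p = 3.9e-12). With cells gated by the share of markers they express, the difference was 2.22 for Cldn10 and 1.44 for Cldn2, and with the mitochondrial limit of 5% it was 2.30 and 1.58.

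Cldn6 was higher by 0.65 ± 0.12 (edgeR adjusted p = 2.2e-05), from 107 and 109 CPM to 155 and 146 CPM. Its call was lost by DESeq2 (adjusted p = 0.11) and with gates by share of markers (adjusted p = 0.051), and the difference was 1.43 with the mitochondrial limit of 5%. Cldn3 was higher by 0.94 ± 0.25 (edgeR adjusted p = 0.0021), but its precursor libraries disagreed, with 7.39 CPM in replicate 1 and 31.8 CPM in replicate 2. Without replicate 1 the Cldn3 difference was 0.48 and without replicate 2 it was 1.90, and its adjusted p was 0.087 by DESeq2 and 0.30 with the mitochondrial limit of 5%. With gates by share of markers the difference was 1.57 for Cldn3 and 0.34 for Cldn6. Cldn5 was lower, at -3.66 ± 0.36 (edgeR adjusted p = 1.9e-10), at -1.59 with no doublet removal, at -4.68 without replicate 1 and at -6.40 with the mitochondrial limit of 5%. Cldn16 was lower, at -1.74 ± 0.46 (edgeR adjusted p = 0.0025), from 3.30 and 3.78 CPM in the precursors to 1.07 and 0.758 CPM, and at -0.55 (adjusted p = 0.55) with gates by share of markers.

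Cldn1 did not differ detectably between these stages (-0.20 ± 0.16, edgeR adjusted p = 0.32). It was already at 46.2 and 36.7 CPM in precursors, higher than in the early nephron by 3.02 ± 0.19 (edgeR adjusted p = 8.3e-15; 2.05 with the mitochondrial limit of 5% and 2.24 with gates by share of markers), and stood at 38.0 and 26.1 CPM in the proximal tubule. Cldn2 was set beside Cldn6 and Cldn10 in the same proximal tubule cells, and the pair of Cldn1 and Cldn10 is given with the loop of Henle below. Cldn6 was seen in 45.8% and 55.0% of cells with Cldn2 and in 55.3% and 52.9% of cells without. Cldn10 was seen in 50.5% and 65.0% of cells with Cldn2 and in 38.8% and 45.1% of cells without, with intervals that overlap in both libraries. In the precursors Cldn6 was more frequent in cells with Cldn2 (42.3% and 57.6%) than without (34.6% and 36.9%), with overlapping intervals in replicate 1 and a narrow overlap in replicate 2.

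**Figure D3:**
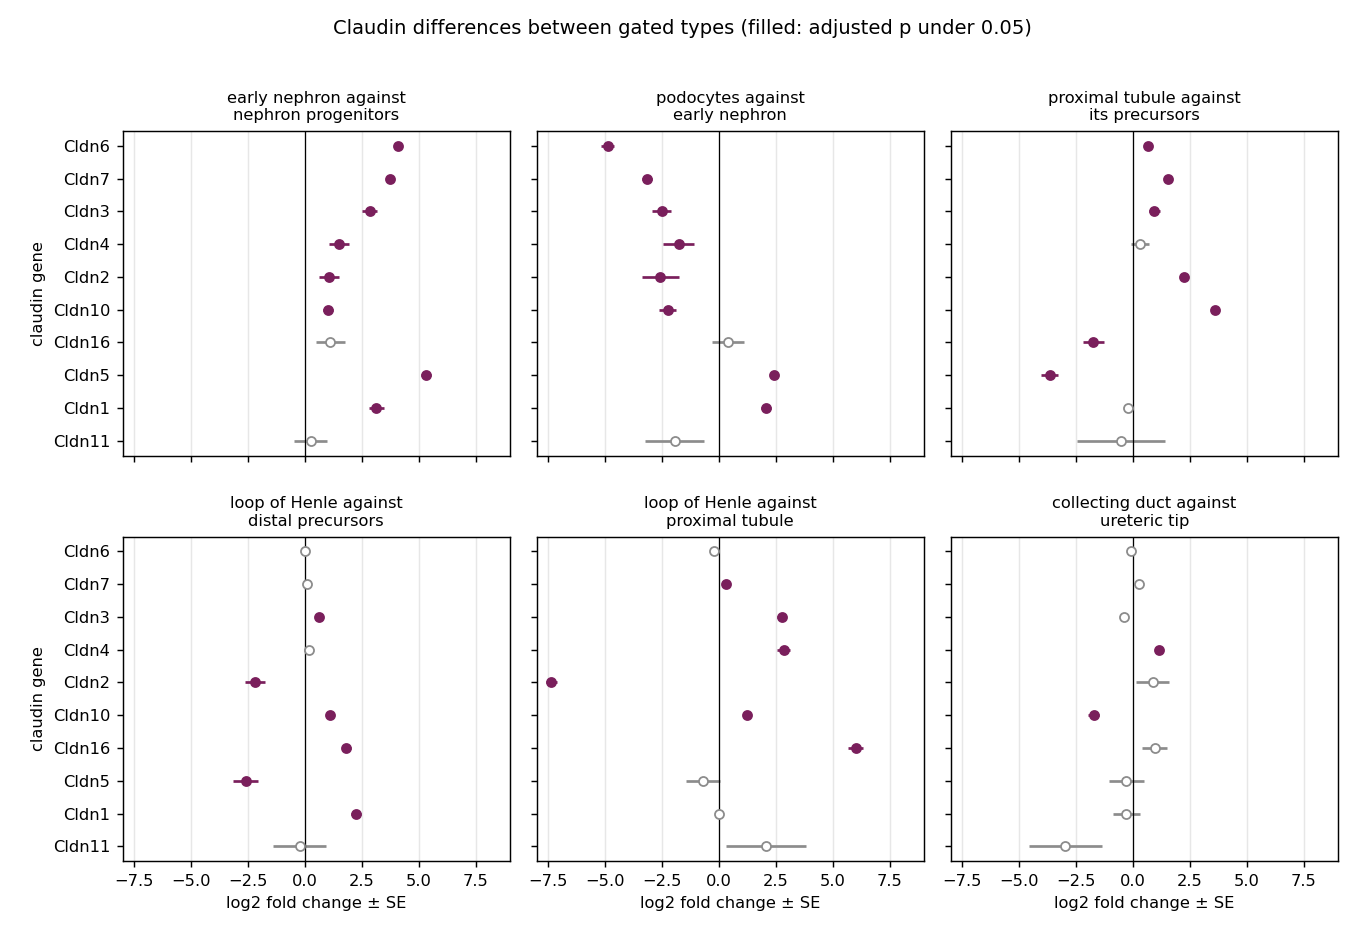
Log2 fold change ± SE of each claudin (rows) in 6 comparisons between gated types (panels), from edgeR's quasi-likelihood fit; filled points have an adjusted p under 0.05 and open points do not. Most points lie to the right in the early nephron, in podocytes the filled points to the right are Cldn5 and Cldn1, and the largest shifts between tubule segments are those of Cldn2 and Cldn16 in the loop of Henle against the proximal tubule.

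The loop of Henle held Cldn10 and Cldn16. Cldn10 stood at 222 and 295 CPM in distal nephron precursors and at 456 and 680 CPM in the loop, and Cldn16 at 25.3 and 14.5 CPM and then at 83.8 and 57.4 CPM. Cldn16 takes part, with Cldn19, in the paracellular reabsorption of calcium and magnesium in the thick ascending limb. Neither gene overlapped between the stages. Cldn10 stood at 6.14 and 5.26 CPM and Cldn16 at 0.55 and 0.40 CPM in the early nephron, and distal precursors were higher than the early nephron by a log2 difference of 5.44 ± 0.15 for Cldn10 and 5.28 ± 0.35 for Cldn16 (edgeR adjusted p = 9.6e-25 and 3.7e-13), in a contrast chosen after the levels were seen in which 42.7% of all genes were called. The difference was 4.72 for Cldn10 with the mitochondrial limit of 5% and 4.03 for Cldn16 with gates by share of markers.

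Against distal nephron precursors, 4 claudins were higher in the loop and 2 lower, where 25.8% of all genes were called, 13.2% higher and 12.6% lower. Here the median log2 difference was 0.13 for the claudins and -0.0014 for all genes. Cldn16 was higher by 1.83 ± 0.22 (edgeR adjusted p = 1.3e-07), and Cldn1 by 2.25 ± 0.21 (edgeR adjusted p = 3.1e-10; 2.86 with gates by share of markers). Cldn10 was higher by 1.11 ± 0.10 (edgeR adjusted p = 2.4e-10), but by 0.03 (adjusted p = 0.93) when cells were gated by the share of markers. Cldn3 was higher by 0.61 ± 0.17 (edgeR adjusted p = 0.0081), which DESeq2 (adjusted p = 0.33) and the fit with no replicate block (adjusted p = 0.10) did not call.

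Cldn2 and Cldn5 were the 2 lower genes. Cldn2 was lower, at -2.17 ± 0.44 (edgeR adjusted p = 0.00024), with -0.95 without replicate 1 and -3.44 without replicate 2, and the call was lost with gates by share of markers (-1.35, adjusted p = 0.056). Cldn5 was lower, at -2.60 ± 0.54 (edgeR adjusted p = 0.00036), at -0.82 (adjusted p = 0.23) with no doublet removal and at -3.76 with gates by share of markers. Cldn7 stood at 384 and 452 CPM in the precursors and at 427 and 480 CPM in the loop (difference 0.11 ± 0.12, edgeR adjusted p = 0.59), and Cldn6 at 149 and 157 CPM and at 145 and 162 CPM. For both genes the 2 stages overlapped.

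Against the proximal tubule, 5 claudins were higher in the loop and 1 lower, where 48.4% of all genes were called, 23.7% higher and 24.6% lower. The median log2 difference was 0.76 for the claudins and 0.02 for all genes. Cldn2 fell to 0.95 and 2.67 CPM. The direct ratio of pooled UMIs, 3226 against 14, put Cldn2 144-fold higher in the proximal tubule (exact 95% interval 85.5 to 263). Cldn16 was 76.1-fold higher in the loop by the same measure (569 against 12 UMIs, interval 43.2 to 148). The fitted log2 differences were -7.36 ± 0.26 for Cldn2 and 6.01 ± 0.34 for Cldn16 (edgeR adjusted p = 7.5e-23 and 3.3e-15), and that of Cldn2 was -6.70 without replicate 1, -8.32 without replicate 2 and -6.76 with gates by share of markers.

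Cldn3 and Cldn4, sealing claudins of the distal nephron and the ureteric tree, were higher in the loop than in the proximal tubule by 2.76 ± 0.21 and 2.85 ± 0.29 (edgeR adjusted p = 1.8e-13 and 3.6e-10). Cldn10 was higher by 1.22 ± 0.11 (edgeR adjusted p = 6.0e-12), and by 0.08 (adjusted p = 0.73) with gates by share of markers. Cldn7 was higher by only 0.31 ± 0.12 (edgeR adjusted p = 0.036). That call was lost by DESeq2, with no doublet removal and with no replicate block (adjusted p = 0.39, 0.19 and 0.19). Of the 8 tested claudins outside the set, 6 were higher and 1 lower (all genes 23.7% and 24.6%), led by Cldn19 at 7.66 ± 0.26, Cldn8 at 5.22 ± 0.29 and Cldn14 at 4.74 ± 0.78 (edgeR adjusted p = 2.2e-22, 6.3e-17 and 2.6e-05). Cldn14 rested on 25 and 20 UMIs in the loop and had an adjusted p of 0.48 by DESeq2. Without replicate 1 the difference was 9.59 for Cldn19 and 7.24 for Cldn14, and without replicate 2 it was 6.999 and 4.11. With gates by share of markers it was 3.78 for Cldn8 and 2.21 for Cldn4, and with no doublet removal 4.61 for Cldn8.

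Cldn1 in the loop of Henle was seen mostly in cells without Cldn10. Cldn1 stood at 50.7 and 24.0 CPM in the loop, so the libraries differed by more than 2 times. At 4600 UMIs 1 of 48 and 1 of 50 cells with Cldn10 had a Cldn1 UMI (2.08% and 2%, intervals 0.05 to 11.1% and 0.05 to 10.6%). Of the cells without Cldn10, 19.1% and 20.9% had one (intervals 9.15 to 33.3% and 10.04 to 36.0%), so the intervals overlapped by a narrow margin in each library. In the proximal tubule the same pair leaned the other way, with Cldn10 in 64.7% and 90.9% of cells with Cldn1 and in 41.1% and 54.2% of cells without. Both pairs were chosen after their values were seen.

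Cldn10 and Cldn16 are known to lie at separate junctions of the thick ascending limb. In the loop gate Cldn16 was seen in 16.7% and 24.0% of cells with Cldn10 and in 27.7% and 16.3% of cells without, so the libraries leaned in opposite directions and the intervals overlapped. In distal nephron precursors Cldn16 was more frequent in cells with Cldn10, in 18.0% and 9.35% of them, than in cells without, 3.55% and 2.46%. The intervals were apart in replicate 1 (10.6 to 27.5% against 1.16 to 8.08%) and overlapped in replicate 2. In the loop Cldn3 was seen in 90.5% and 73.7% of cells with Cldn16 and in 50% and 55.4% of cells without.

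The ureteric tree held the highest levels of Cldn3, Cldn4 and Cldn7 among the fitted types. The urothelium gate, too small for the fit, had 152 and 217 CPM of Cldn4. Cldn7 stood at 605 and 651 CPM in the ureteric tip, where branching takes place, and at 682 and 857 CPM in the collecting duct. Cldn3 stood at 510 and 600 CPM in the tip and at 347 and 521 CPM in the duct, so the 2 types overlapped. Cldn4, which forms a chloride path in the collecting duct, stood at 71.7 and 54.5 CPM in the tip and at 118 and 175 CPM in the duct, with no overlap.

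Between duct and tip 1 claudin was higher and 1 lower, where 35.8% of all genes were called, 18.0% higher and 17.8% lower. The median log2 difference was -0.19 for the claudins and 0.02 for all genes. Cldn4 was higher in the collecting duct by a log2 difference of 1.16 ± 0.16 (edgeR adjusted p = 6.0e-07). Cldn10 was lower, at -1.73 ± 0.25 (edgeR adjusted p = 9.1e-07), from 20.2 and 24.6 CPM in the tip. Cldn7 (0.29 ± 0.12, edgeR adjusted p = 0.065) and Cldn3 (-0.38 ± 0.17, edgeR adjusted p = 0.079) were near the threshold and crossed it in some settings. Among the other claudins Cldn8, a claudin of the distal nephron, was higher by 1.78 ± 0.13 (edgeR adjusted p = 1.2e-12), at 391 and 302 CPM in the duct. Cldn23 was higher by 1.64 ± 0.36 (edgeR adjusted p = 0.00097), by 2.65 without replicate 1 and by 1.10 without replicate 2.

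The collecting duct and the loop of Henle, compared after the levels were seen, differed in Cldn10, which was 83.8-fold higher in the loop by pooled UMIs (4474 against 64, exact 95% interval 65.5 to 109). Cldn4 was higher in the duct by a log2 difference of 2.34 ± 0.17 and Cldn3 by 0.81 ± 0.17 (edgeR adjusted p = 6.2e-13 and 0.00038), the latter with an adjusted p of 0.17 by DESeq2. In that comparison 27.1% of all genes were called. Cldn6 varied little over these epithelia. It lay between 126 and 169 CPM in the ureteric tip, loop of Henle, distal nephron precursors, proximal tubule and collecting duct, and these 5 types overlapped from each to the next.

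In the ureteric tip Cldn3 was seen mostly in cells with Cldn7. A Cldn3 UMI was seen in 87.7% and 93.2% of tip cells with Cldn7 (50 of 57 and 55 of 59) and in 10.0% and 0% of the 10 and 13 cells without. The upper interval bounds of the latter were 44.5% and 24.7%. Cldn4 was seen in 28.1% and 23.7% of tip cells with Cldn7 and in none without, with upper bounds of 30.8% and 24.7%. The 8 stroma gate markers together stood at 144 and 494 CPM in the tip gate, against 21.0 and 15.8 CPM in the collecting duct, and the 6 mural markers at 62.2 and 201 CPM against 8.56 and 8.14 CPM. No claudin UMI was seen in 7.46% and 12.5% of tip cells, and the part of misplaced stromal cells in the pair values was not tested. In the collecting duct Cldn7 was seen in 92.7% and 98% of cells with Cldn4 and in 91.4% and 91.8% of cells without. Cldn3 was seen in 68.3% and 92.0% of duct cells with Cldn4 and in 63.0% and 73.5% of cells without. Cells that hold 2 or more of the 10 claudins made up 84.4% and 91.9% of collecting duct cells and 89.5% and 88.2% of loop of Henle cells, against 14.2% and 12.6% of podocytes.

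Outside the epithelia each lineage held mainly 1 or 2 of the claudins. Cldn5 was the claudin of the endothelium. Cldn1 and Cldn11, the latter best known from myelin and the testis, were the claudins of the stroma. Between endothelial and stromal types 1 claudin was higher and 3 were lower, where 56.5% of all genes were called, 29.9% higher and 26.7% lower. Cldn5 was higher in endothelium by a log2 difference of 6.44 ± 0.15 (edgeR adjusted p = 4.3e-29), by 7.25 without the mural gate and by 5.67 with gates by share of markers. Cldn10 was lower, at -0.96 ± 0.28 (edgeR adjusted p = 0.0036) and lost the call with a minimum of 50 cells (-0.58, adjusted p = 0.12) and with the mitochondrial limit of 5% (adjusted p = 0.18).

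Endothelium had almost no Cldn1 or Cldn11. Over the 4 endothelial types 5 UMIs of Cldn1 were counted, against 1084 over the stromal types, a ratio of 141 (exact 95% interval 60.2 to 435). Cldn11 had 3 UMIs against 750, a ratio of 163 (interval 55.4 to 790). Both genes were called lower in endothelium by edgeR's quasi-likelihood test (adjusted p = 1.5e-18 and 6.0e-09).

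**Figure D4:**
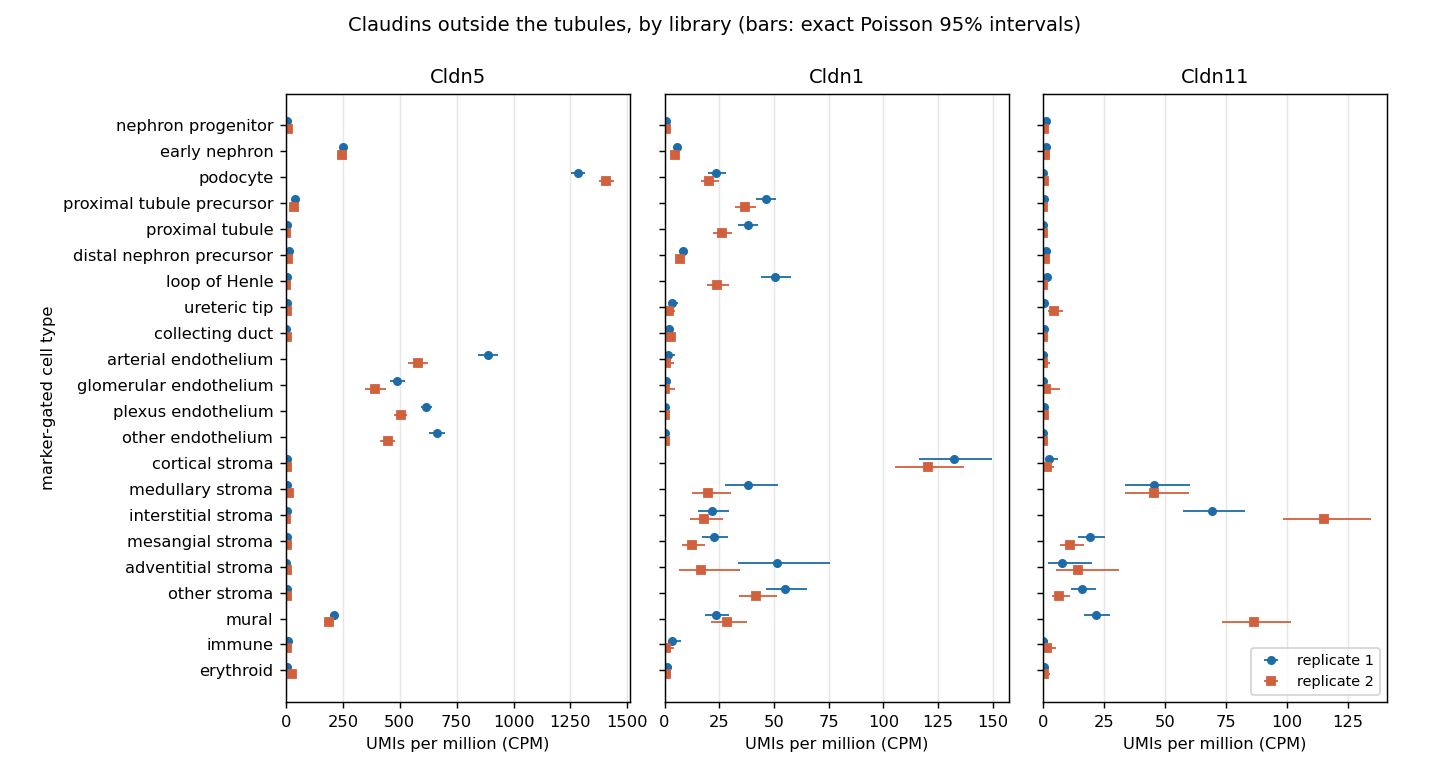
Level of Cldn5, Cldn1 and Cldn11 (panels; horizontal axis in CPM, each panel with its own scale) in the 22 gated types (rows); circles are replicate 1, squares replicate 2, and bars are exact Poisson 95% intervals for counting error. Cldn5 is highest in podocytes, at 1283 and 1407 CPM, Cldn1 in cortical stroma, at 132 and 120 CPM, and Cldn11 in interstitial stroma, at 69.2 and 116 CPM.

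Cldn1 was highest of all fitted types in cortical stroma, the outer stroma that keeps Foxd1. It stood at 132 and 120 CPM there (126 ± 8.5), and a UMI was seen in 42.9% and 38.4% of these cells at 4600 UMIs. The next fitted types by mean level were stroma of no sub-gate, with 55.1 and 42.0 CPM, proximal tubule precursors, with 46.2 and 36.7 CPM, and the loop of Henle, with 50.7 and 24.0 CPM. Among the other stromal types adventitial stroma had 51.5 and 16.8 CPM of Cldn1 and medullary stroma 38.2 and 20.01 CPM, and none reached the cortical libraries. Against the other stromal types, a comparison chosen after the levels were seen, Cldn1 was higher by a log2 difference of 2.21 ± 0.14 (edgeR adjusted p = 5.5e-13), where 15.4% of all genes were called. Cortical stroma cells with a UMI of Epcam, Krt8, Pax8 or Cdh6 (48 and 46 cells) had 113 and 131 CPM of Cldn1, and those without (122 and 147) had 141 and 116 CPM, so the libraries leaned in opposite directions. The 8 proximal tubule gate markers together stood at 25.8 and 22.1 CPM in cortical stroma.

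Cldn11 had nearly the opposite order within the stroma. It stood at 69.2 and 116 CPM in interstitial stroma, at 45.7 and 45.5 CPM in medullary stroma and at 2.64 and 1.54 CPM in cortical stroma. The ratio of interstitial to cortical stroma was 43.4 by pooled UMIs (285 against 8, exact 95% interval 21.7 to 101). Cldn11 was higher in interstitial stroma than in the other stromal types by a log2 difference of 2.67 ± 0.34 (edgeR adjusted p = 6.5e-07), where 11.2% of all genes were called. It was lower in cortical stroma, at -3.69 ± 0.70 (edgeR adjusted p = 0.00029). Both comparisons were chosen after the levels were seen. In mural cells the libraries disagreed, with 21.6 CPM in replicate 1 and 86.8 CPM in replicate 2, so their place in the order is not settled.

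Cells of the interstitial gate rarely held both genes. A Cldn11 UMI was seen in 2 of 13 and 1 of 13 cells with Cldn1, and in 23.7% and 27.5% of cells without, with intervals that overlap in both libraries. Adventitial stroma had 23.8 and 28.8 CPM of Cldn10, from 12 UMIs in each library, with 1 of the 5 loop of Henle gate markers at 0 and their sum at 11.9 and 12.0 CPM. In replicate 2, cells of that gate with a UMI of Epcam, Krt8, Pax8 or Slc12a1 had 57.1 CPM of Cldn10 (9 UMIs in 11 cells) and those without had 11.6 CPM (3 UMIs in 30 cells). In replicate 1 the values were 23.2 and 24.0 CPM, and the part of tubule RNA was not tested further.

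Mural cells, the smooth muscle and renin gate, had 209 and 188 CPM of Cldn5. The 5 podocyte gate markers together stood at 92.5 and 70.2 CPM in the mural gate, and their part in the result was not tested.

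Arterial and plexus endothelium, the latter the plexus or venous sub-gate, were compared next, and none of the 10 claudins passed edgeR's quasi-likelihood test, while 18.3% of all genes were called. At an unadjusted p under 0.05 there were 2, Cldn1 and Cldn10, and DESeq2 called 1, Cldn1, on 4 UMIs in arterial endothelium and 0 in plexus endothelium. Cldn5 differed by 0.29 ± 0.17 (edgeR adjusted p = 0.29), and its libraries overlapped. Of the 29 tight junction partners 10 were higher in arterial endothelium and 2 lower, in the same contrast with 18.3% of all genes called. Lsr and Ildr2, of the tricellular junction, were higher by 3.99 ± 0.45 and 5.02 ± 1.01 and Jam2 by 2.17 ± 0.31 (edgeR adjusted p = 2.1e-08, 0.00033 and 2.2e-06). Without replicate 1 the difference was 5.69 for Lsr and 7.53 for Ildr2, and without replicate 2 it was 3.40 and 4.40. With the mitochondrial limit of 5% it was 3.15 for Jam2, 4.87 for Lsr and 7.35 for Ildr2, and with no doublet removal 3.66 for Ildr2. Ildr2 rested on 12 and 8 UMIs in arterial endothelium against 1 and 0 in plexus endothelium, and Lsr on 39 and 29 against 7 and 1. The 5 podocyte gate markers together stood at 267 and 193 CPM in arterial endothelium and at 59.4 and 52.1 CPM in plexus endothelium. The 6 mural markers stood at 268 and 232 CPM against 14.99 and 10.49 CPM, and the part of either cell type in these differences was not tested. Cldn15 was higher by 0.79 ± 0.25 (edgeR adjusted p = 0.022), by 1.33 with the mitochondrial limit of 5%, and its adjusted p was 0.051 with no replicate block.

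Of the other 17 claudin and claudin-domain genes on the list, 9 could not be tested, most of them at a few UMIs or none. Those with a clear place were Cldn8 in the collecting duct, at 347 ± 63.2 CPM, Cldn19 in the loop of Henle, at 193 ± 10.7 CPM, and Cldn15 in arterial endothelium, at 87.7 ± 16.7 CPM, next to glomerular endothelium with a mean of 80.8 CPM. Cldn13 was counted in erythroid cells, with 14 and 7 UMIs there and 1 UMI in the remaining kept cells. Cldn20 had 10 and 14 UMIs in podocytes.

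The genes whose levels ran most like each claudin over the 44 columns were sought among the 14369 genes tested, leaving out the claudins of the set and the gate markers. For Cldn5 these were Podxl (r = 0.89), Ephb1 (0.88) and Sema3g (0.88), and for Cldn16 Casr (0.93), Slc34a2 (0.90) and Kng2 (0.90). For Cldn11 they were Ptx3 (0.93), Gna14 (0.92) and Gm11541 (0.91), and for Cldn1 Pth1r (0.84), Loxl1 (0.83) and Pdzrn3 (0.82). For Cldn2 they were Gm10804 (0.94), Ugt2b37 (0.93) and A1cf (0.93), and for Cldn10 5330417C22Rik (0.87), Fxyd2 (0.86) and Cdhr5 (0.85).

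The claudins shared by tubule and ureteric types had the closest neighbours. For Cldn6 they were Ttll10 (0.98) and Cdcp1 (0.98), and for Cldn7 Cdcp1 (0.98), Kdf1 (0.97) and Cdh1 (0.97), the adhesion protein E-cadherin. For Cldn3 they were Cdh1 (0.95), St14 (0.95) and Tmed6 (0.95), and for Cldn4 Gm16136 (0.97), Esrp1 (0.95) and Ehf (0.95). Casr, first for Cldn16, encodes the calcium-sensing receptor. These r values are descriptions over types that share libraries.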

How the data were processed

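Single-cell RNA was counted in 2 libraries of 1 genotype. The deposited values are raw counts of UMIs per gene and barcode, unfiltered. Cell Ranger 4 is named per the file headers, whereas the submitters' processing notes name Cell Ranger 6.0.1 and the build mm10. Libraries were numbered in the order of their sample records.

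Barcodes with at least 2000 UMIs and at most 10% mitochondrial UMIs were kept. Scrublet (scanpy 1.11.5, Python 3.11.15, expected rate 6%) scored doublets, and the highest scores were removed at 0.8% per 1000 cells, 310 and 212 barcodes. The automatic threshold marked 63 and 22. The members and gene lists were chosen with earlier results of these data known. Cells were gated by the mean of marker z-scores (clipped at 5, score at least 0.3, margin 0.1, at least 2 markers detected). These limits were set after gate sizes, and a first look at claudin levels, had been seen. Stroma and endothelium were divided by further markers. The 22 types had median depths from 4419.5 to 24225 UMIs.

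UMIs were summed per type and library. The sums, 44 columns and 14369 genes after filterByExpr, were fitted in R 4.3.3 with edgeR's quasi-likelihood model (version 4.0.16, TMM scaling, a term for each library). The fit had 21 residual degrees of freedom, with Benjamini-Hochberg adjustment across the genes (threshold 0.05). The test was tried on simulated data for 1 contrast, loop of Henle against proximal tubule, with a spread that was set and not taken from these data. It called 78.6% of 112 genes changed 2-fold and 100% of 88 genes changed 4-fold. Of 14159 unchanged genes it called 10. Cells were never replicates. CPM carry exact Poisson and shares exact binomial 95% intervals, and ratios of pooled UMIs exact conditional ones, all for counting error only. Named genes were all 10 claudins, the 3 largest changes among called genes of each further list, and the 3 genes most like each claudin. A few results of this kind are not reported here. Alternatives are given in the closing section. The planned comparison of distal tubule with loop of Henle could not be fitted, since the distal tubule gate held 27 and 18 cells. Coordinates come from the RefSeq table of GRCm38.p6 (mm10).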

Additional observations from a re-analysis of the deposited data

Results flagged for a closer look

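Claudin UMIs appeared in cells and barcodes that enter no comparison. The urothelium gate, with 10 cells, was too small for the fit and had 181 CPM of Cldn4 and 262 CPM of Cldn7, from 52 and 75 UMIs. Cldn18, a claudin of lung and stomach, was counted 76 times in replicate 1 and 65 times in replicate 2 in barcodes with under 100 UMIs, and 0 times in the 10847 kept cells. Sftpc, a surfactant gene of the lung looked at after Cldn18 was seen, had 8226 and 7180 UMIs in the same barcodes and 10 in the kept cells. The cause was not tested.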

How the results depend on the processing

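The counts of called genes were within 1.5 times of those reported in 164 of 171 comparisons with an alternative. The claudins called between arterial and plexus endothelium went from 0 to 1 with a minimum of 5000 UMIs, the mitochondrial limit of 5%, a doubled gate margin, no filter on low counts and DESeq2. The genes were Cldn10, Cldn5, Cldn10, Cldn1 and Cldn1 in that order. Between collecting duct and ureteric tip the claudin calls went from 2 to 5 with no filter, and in the early nephron from 8 to 5 with the mitochondrial limit of 5%. Of 95 differences of named genes, 1 turned in sign, that of Cldn5 between epithelium and the rest (1.04 with the mitochondrial limit of 5%). In 72 of them every refitted test kept direction and side of the threshold. The other losses of a call came mostly from DESeq2 (8), the mitochondrial limit of 5% (8) and gates by share of markers (6), and 4 came from the fit with no replicate block. The mitochondrial limit of 5% left too few loop of Henle and collecting duct cells to fit. With no doublet removal 44 of 51 levels stayed within 1 SD. Leaving out 1 library gives values with no test. The comparison of distal tubule with loop of Henle was fitted only with no doublet removal. Depth limits the low levels, and a count of 0 allows up to 3 UMIs. Cause was not tested.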
